A study of Sus scrofa with 4 samples.

Results

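The genes described here encode the machinery of vesicle traffic and exocytosis, that is, the small GTPases, coat proteins, cargo receptors and SNARE proteins that bud, move and fuse membrane vesicles. They were chosen by symbol alone, as the genes of the count table whose symbols belong to the RAB, ARF, ARL, GDI, SEC, VPS, SNX, COP, VAMP, STX, SNAP, NAP, AP, TMED, KDEL, SYT, EXOC and CLT families. This rule took 73 of the 4381 listed genes and used no expression value. By known function, 34 of the 73 genes act in the endosomal system, 23 between the endoplasmic reticulum (ER) and the Golgi, 6 in exocytosis and 2 on every route, and 8 matched by name while having another or an unsettled route.

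RNA was sequenced from porcine oocytes at the M II stage, the metaphase of the second meiotic division at which a mature oocyte waits for sperm. Control oocytes (2 libraries) and SIRT6-inhibited oocytes (2 libraries) were compared, to ask how transcript levels differ when SIRT6, an NAD+-dependent deacylase of histones and other proteins, is blocked during maturation. The SIRT6-inhibited oocytes had matured in vitro in medium with 100 μM of SIRT6-IN-1, a cell-permeable inhibitor dissolved in dimethyl sulfoxide; both groups were matured for 42 to 44 h, and whether the control medium held the solvent is not given in the sources used here. The study's methods give 100 oocytes per group, while the number that went into each library is not given in the sources used here. Because no label says that libraries of a group came from separate collections, the p-values below measure only the spread between these libraries, which may be technical.

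Rab and Arf GTPases switch between a GDP-bound and a GTP-bound state and recruit to each membrane the coats, tethers and motors that it needs. COPII vesicles carry new proteins out of the ER, COPI vesicles return material to it, clathrin with its AP adaptors forms vesicles at the plasma membrane, the trans-Golgi network and endosomes, and SNARE proteins on vesicle and target membranes pair to fuse them. The mature oocyte holds a layer of Golgi-derived cortical granules beneath its plasma membrane, whose exocytosis after sperm entry modifies the zona pellucida and blocks polyspermy.

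Total counts on the listed genes were 4646129 for control library 1, 3405960 for control library 2, 3239200 for SIRT6-inhibited library 1 and 4972602 for SIRT6-inhibited library 2. The 73 vesicle traffic genes took 2.65% and 2.60% of these counts in the control libraries compared with 2.57% and 2.68% in the SIRT6-inhibited ones, so that the ranges of the groups overlapped. At least 1 count was found for 60 and 67 of them in the control libraries and for 61 in each SIRT6-inhibited library. Levels are given as normalized CPM, which are counts relative to the library total (CPM scale) after scaling by edgeR's TMM factor and are not divided by transcript length, so they do not rank genes by amount of transcript. Where genes are ordered or split by level below, it is on this scale only. A count of 3, taken as the smallest that can be told from 0, was 0.648 and 0.845 normalized CPM in the control libraries compared with 0.932 and 0.625 in the SIRT6-inhibited ones, which covers counting error only.

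Of the 73 genes, 62 had enough counts to be tested among 2387 genes in all. After Benjamini-Hochberg adjustment of the p-values from edgeR's quasi-likelihood test, 0 of the 62 vesicle traffic genes were below 0.05, where 0% of all genes were, and their smallest adjusted value was 0.460. Before adjustment 7 genes (11.3%) had a p-value under 0.05, compared with 9.05% of all tested genes. Of these, 5 were lower in SIRT6-inhibited oocytes (SNAP23, RAB10, VAMP7, SEC62 and ARL6IP1), where 5.99% of all genes were, and 2 were higher (GDI2 and AP2B1), where 3.06% of all genes were. DESeq2's Wald test gave an adjusted p-value under 0.05 to 1 vesicle traffic gene, GDI2, and to 37 genes in all. Without SIRT6-inhibited library 1, edgeR gave 11 of the 65 vesicle traffic genes tested then an unadjusted p-value under 0.05, against 11.7% of all genes. An adjusted one was then given to 77 of 2586 genes, among them ARL6IP1 and TMED3, and the SIRT6-inhibited library that remained had 0 counts of TMED3.

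The 62 genes divided almost evenly in direction, with 33 below and 29 above a log2 fold change of 0. Their median log2 fold change, SIRT6-inhibited over control, was -0.05, and that of all tested genes was -0.04. Both SIRT6-inhibited libraries lay below both control libraries for 19 of the 62 genes (30.6%, against 22.2% of all tested genes), and above both for 11 (17.7%, against 17.9%). The groups overlapped for the other 32 genes. In RNA from pooled cells, fewer cells of a type and less RNA per cell cannot be told apart, and all levels here are relative to the other listed transcripts.

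**Figure D1:**
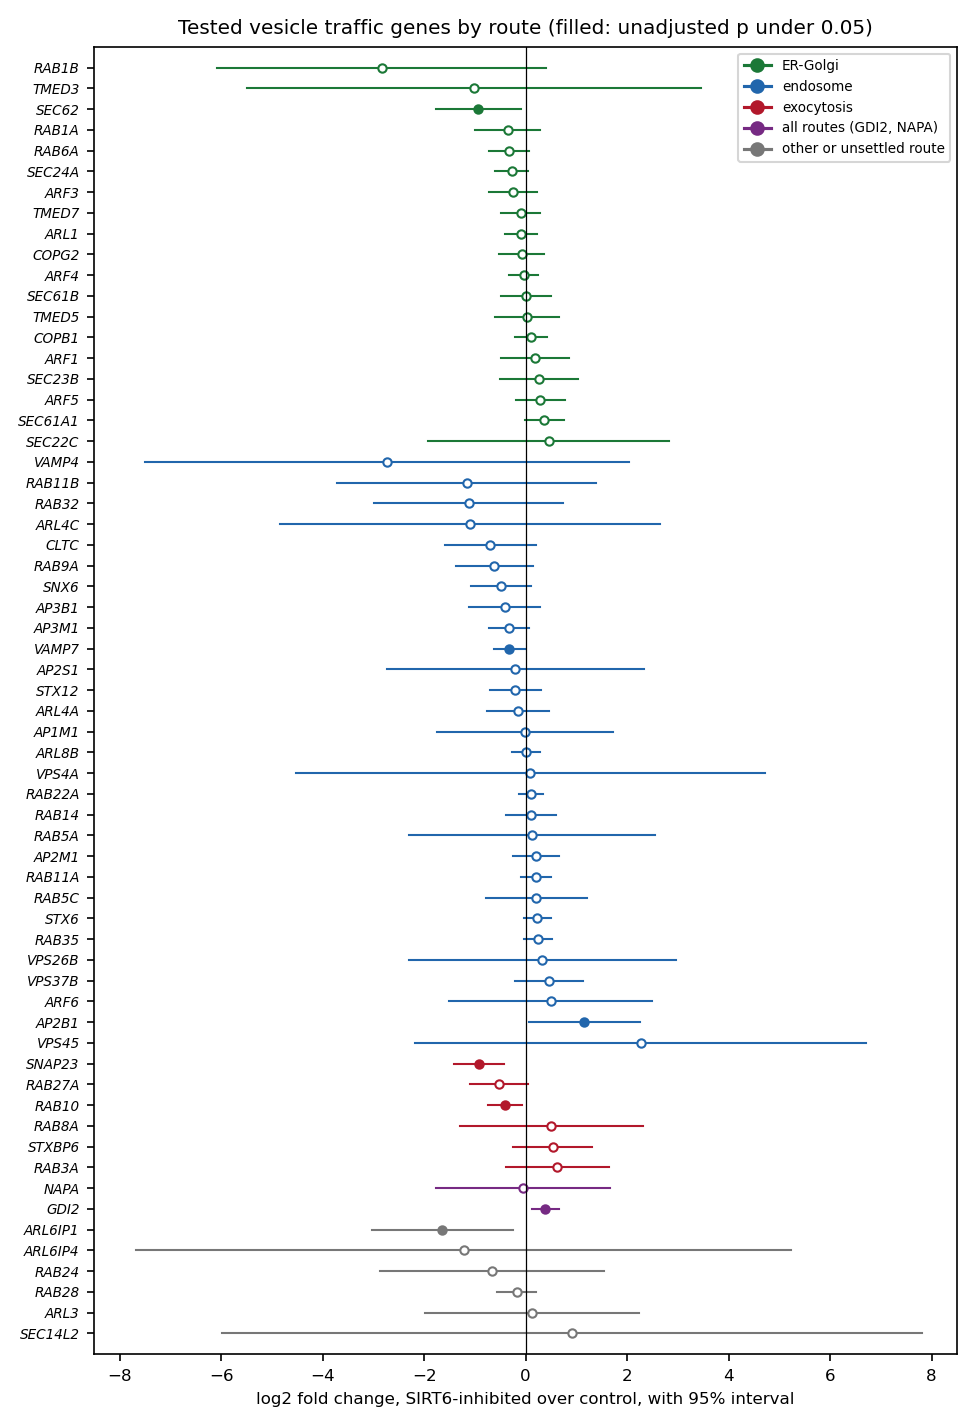
Log2 fold change (x axis, SIRT6-inhibited over control) of each of the 62 tested vesicle traffic genes (y axis), grouped and coloured by route, with the 95% interval as a line and a filled point where the unadjusted p-value from edgeR was under 0.05. The 7 filled points include 2 of the 6 exocytosis genes, and the interval of every gene with an open point spans 0.

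The identity of the samples was read from marker genes. All 11 listed oocyte markers had counts, with H1FOO, the oocyte linker histone, as the most abundant. Their summed normalized CPM was 50256 and 54258 in the control libraries compared with 50113 and 50038 in the SIRT6-inhibited ones. The SIRT6-inhibited sums were the lower ones, but control library 1 lay much closer to them than to control library 2. The groups overlapped for 9 of the 11 markers, and 4 of the 11 (ZAR1, NPM2, BMP15 and H1FOO) had a log2 fold change above 0. GDF9 and ZP2 were lower without overlap, where 22.2% of all tested genes were. GDF9, an oocyte growth factor, was at 1323 and 2988 normalized CPM in the control libraries compared with 978 and 393 in the SIRT6-inhibited ones, with a log2 fold change of -1.65 (SE 0.50) and an unadjusted p-value of 0.0140 in edgeR. For ZP2, which encodes part of the zona pellucida, the log2 fold change was -0.37 (SE 0.14) and the unadjusted p-value 0.0316. Of 14 listed cumulus and granulosa cell markers 10 had a count in some library, and TNFAIP6, AMH, FSHR and LHCGR were at 0 in all 4 libraries. The summed level of the cumulus and granulosa markers was 149 and 191 normalized CPM in the control libraries compared with 85.4 and 199.9 in the SIRT6-inhibited ones, with VCAN as the most abundant, so that the sums overlapped. Among single markers PTGS2 was counted 22 and 12 times in the control libraries and was at 0 in both SIRT6-inhibited libraries. INHBA was lower and CYP11A1 higher in the SIRT6-inhibited libraries without overlap, where 22.2% and 17.9% of all tested genes were. The unadjusted p-values of PTGS2, INHBA and CYP11A1 were above 0.05 in edgeR. Of 3 listed blood and immune markers, CD68 alone had counts, in control library 2. The part of other cell types in the levels below was not tested.

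The 6 exocytosis genes divided evenly, with 3 below and 3 above a log2 fold change of 0. The 2 with unadjusted p-values under 0.05, SNAP23 and RAB10, were both lower in SIRT6-inhibited oocytes (33.3% of the 6, against 5.99% of all tested genes for this direction). The groups did not overlap for 5 of the 6, of which 3 were lower and 2 higher, where 22.2% and 17.9% of all tested genes were. With so few genes these shares rest on single members.

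SNAP23 is a SNARE of the target membrane, the widely expressed relative of neuronal SNAP25, and takes part in cortical granule exocytosis in mammalian oocytes. It was at 238.6 and 270.8 normalized CPM in the control libraries compared with 132 and 137.5 in the SIRT6-inhibited ones, which is a mean of 255 ± 22.8 against 135 ± 3.83 (SD, n = 2). Both SIRT6-inhibited libraries were far below both control libraries, and the difference between the groups was larger than the spread within either. On the log2 scale the fold change was -0.92 with a standard error (SE) of 0.21 and a 95% interval of -1.41 to -0.43, so the control level was 1.89 times the SIRT6-inhibited level. edgeR gave an unadjusted p-value of 0.00336, which ranked 13 among the 2387 genes, and an adjusted p-value of 0.460. Leaving out any one library kept the unadjusted p-value between 0.00407 and 0.0302, and over all alternatives tried the adjusted value ran from 0.0313, with no filter on low counts, to 0.950. In the RefSeq annotation of Sscrofa11.1 the protein-coding SNAP23 gene lies at chr1:128849465-128888972 and overlaps no other annotated gene.

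RAB10 is a GTPase that carries vesicles from the Golgi and recycling compartments to the plasma membrane. Its level was 594.2 and 579.9 normalized CPM in the control libraries compared with 413.5 and 470.3 in the SIRT6-inhibited ones. The groups did not overlap, and the control libraries lay close together. edgeR gave a log2 fold change of -0.41 (SE 0.14), with an unadjusted p-value of 0.0254 and an adjusted one of 0.496. The unadjusted p-value was 0.0848 without control library 1, 0.0650 without control library 2 and 0.170 without SIRT6-inhibited library 1. The RAB10 gene lies at chr3:112842190-112924188 in Sscrofa11.1.

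RAB27A and RAB3A are the GTPases best known from regulated secretion, where they tether and dock secretory granules at the plasma membrane. RAB27A stood at 161 and 196 normalized CPM in the control libraries compared with 134 and 115 in the SIRT6-inhibited ones. Its groups did not overlap, with the SIRT6-inhibited libraries lower, and its log2 fold change of -0.52 (SE 0.24, 95% interval -1.10 to 0.05) had an unadjusted p-value of 0.0670. RAB3A lay on the other side. It had 42.1 and 35.8 normalized CPM in the control libraries compared with 49.4 and 70.8 in the SIRT6-inhibited ones, where SIRT6-inhibited library 2 was well above the other 3. With a log2 fold change of 0.63 (SE 0.43), RAB3A had the highest of the 6 exocytosis genes, SNAP23 had the lowest, and the unadjusted p-value of RAB3A was 0.188. Without SIRT6-inhibited library 2 the log2 fold change of RAB3A was 0.34.

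STXBP6, also called amisyn, binds SNARE proteins and is known as a negative regulator of their assembly. Its level was 51.2 and 57.7 normalized CPM in the control libraries compared with 86.7 and 71.0 in the SIRT6-inhibited ones, without overlap and higher in the SIRT6-inhibited libraries. This gave a log2 fold change of 0.53 (SE 0.32) with an unadjusted p-value of 0.146. RAB8A, a GTPase of traffic to the plasma membrane and the primary cilium, had 104 and 54 counts in the control libraries compared with 118 and 82 in the SIRT6-inhibited ones. Its groups overlapped, with a log2 fold change of 0.51 (SE 0.75).

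The summed level of the 6 exocytosis genes was 1110 and 1155 normalized CPM in the control libraries compared with 852 and 881 in the SIRT6-inhibited ones. This is 1132 ± 32.3 against 867 ± 20.9 (SD, n = 2), or 76.5% of the control mean, and the groups did not overlap. The sum weights each gene by its counts, while the median log2 fold change of the same 6 genes was 0.05. That median had no stable direction, being -0.06 without control library 2, -0.24 without SIRT6-inhibited library 1 and -0.04 without SIRT6-inhibited library 2. By group means, RAB10 (587 against 442), SNAP23 (255 against 135) and RAB27A (178.5 against 124 normalized CPM) were lower in SIRT6-inhibited oocytes. STXBP6 (54.4 against 78.9), RAB3A (38.9 against 60.1) and RAB8A (18.8 against 26.9 normalized CPM) had higher means there. Without RAB10 the other 5 genes were at 77.9% of the control mean, and without SNAP23 as well the remaining 4 were at 277 and 305 normalized CPM in the control libraries compared with 306 and 274 in the SIRT6-inhibited ones, or 99.8% of the control mean with overlapping groups. For comparison, the sum over all 73 genes was at 104% of the control mean, that of the ER-Golgi genes at 98.5% and that of the endosome genes at 107%.

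**Figure D2:**
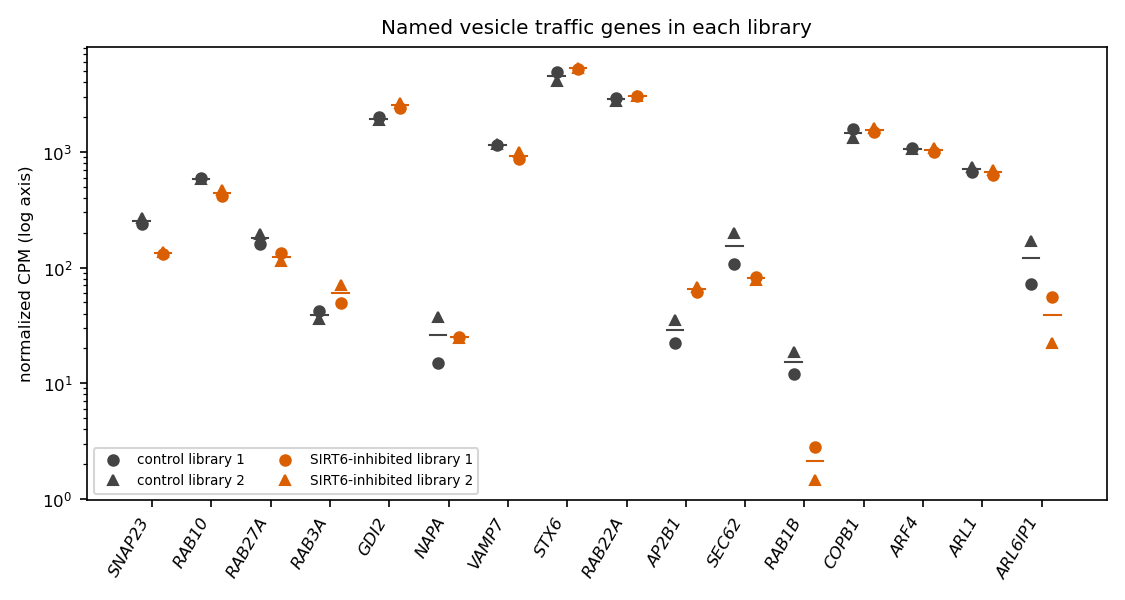
Normalized CPM (y axis, log scale) of 16 vesicle traffic genes (x axis) in each library, with control libraries in grey, SIRT6-inhibited libraries in orange, circles for library 1, triangles for library 2 and a bar at each group mean. The libraries of SNAP23 stood at separate levels in the groups, 238.6 and 270.8 against 132 and 137.5, whereas the libraries of ARF4 lay together between 991 and 1088.

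GDI2 and NAPA serve every route. GDI2 extracts GDP-bound Rab proteins from membranes and returns them to the cytosol for another cycle. It was at 2007 and 1882 normalized CPM in the control libraries compared with 2423 and 2675 in the SIRT6-inhibited ones, a mean of 1945 ± 88.6 against 2549 ± 178 (SD, n = 2). Both SIRT6-inhibited libraries were higher than both control libraries, by more than the spread within either group. On the log2 scale the fold change was 0.39 (SE 0.11, 95% interval 0.13 to 0.65), with an unadjusted p-value of 0.00989, rank 48 among 2387 genes, and an adjusted p-value of 0.460 in edgeR. In DESeq2 its adjusted p-value was 0.0198, and over all alternatives tried the adjusted value ran from 0.0198 to 0.950. Without SIRT6-inhibited library 2 the unadjusted p-value was 0.109. The GDI2 gene lies at chr10:65160700-65196447 in Sscrofa11.1.

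NAPA, or alpha-SNAP, brings the ATPase NSF to spent SNARE complexes to take them apart. Its level was 14.9 and 37.2 normalized CPM in the control libraries compared with 25.2 and 24.8 in the SIRT6-inhibited ones. The control libraries lay on either side of the SIRT6-inhibited ones, and the log2 fold change was -0.06 (SE 0.72). NSF itself, which lies outside the symbol pattern, had a log2 fold change of 0.03 (SE 0.28) with overlapping groups.

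The endosomal genes were the most numerous, with 29 of 34 tested. They showed 14 log2 fold changes below and 15 above 0, with a median of 0.00. In edgeR the unadjusted p-value was under 0.05 for VAMP7 on the lower side and for AP2B1 on the higher side, which is 6.90% of the 29 genes and below the 9.05% of all tested genes. Both SIRT6-inhibited libraries were below both control libraries for 8 genes (27.6%, against 22.2% of all tested genes) and above them for 7 (24.1%, against 17.9%).

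Among the endosomal SNAREs 4 of 5 were tested, with a median log2 fold change of -0.26. VAMP7, a vesicle SNARE of late endosomes and lysosomes that also serves secretion at the plasma membrane, was at 1143 and 1176 normalized CPM in the control libraries compared with 862 and 995 in the SIRT6-inhibited ones. The groups did not overlap, and the SIRT6-inhibited libraries were lower. edgeR gave a log2 fold change of -0.32 (SE 0.13), with an unadjusted p-value of 0.0394 and an adjusted one of 0.532. Leaving out any one library moved the unadjusted p-value above 0.05, to between 0.0542 and 0.299. VAMP7 lies at chrX:125863266-125917232 in Sscrofa11.1.

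STX6, a SNARE of the trans-Golgi network and early endosomes, had 4914 and 4145 normalized CPM in the control libraries compared with 5262 and 5379 in the SIRT6-inhibited ones. The SIRT6-inhibited libraries were above both control libraries, although control library 1 came close to them. The log2 fold change of STX6 was 0.23 (SE 0.11) with an unadjusted p-value of 0.0788 in edgeR and 0.0122 in DESeq2. It was 0.35 without control library 1 (unadjusted p-value 0.00611) and 0.11 without control library 2 (0.248), and the p-value was 0.178 and 0.232 without SIRT6-inhibited library 1 and 2. The share of a library's counts that fell on STX6 was 0.432% at the lowest and 0.523% at the highest. VAMP4, a SNARE of retrograde traffic from endosomes to the trans-Golgi network, had the lowest log2 fold change of the endosomal genes. It had 47 and 55 counts in the control libraries compared with 0 and 18 in the SIRT6-inhibited ones. Its log2 fold change of -2.73 had an SE of 1.99, with an unadjusted p-value of 0.216 in edgeR. The log2 fold change was -1.77 without SIRT6-inhibited library 1 and -8.61 without SIRT6-inhibited library 2. In the latter fit the lone SIRT6-inhibited library had 0 counts of VAMP4, so -8.61 is not a measured fold.

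The endosomal GTPases gave 13 tested genes of 14, with 5 log2 fold changes below and 8 above 0 and a range of -1.16 to 0.50. With all 4 libraries 0 of the 13 had an unadjusted p-value under 0.05, against 9.05% of all tested genes in edgeR and 9.93% in DESeq2. Adjusted p-values under 0.05 also numbered 0, against 0% of all tested genes in edgeR and 37 genes in DESeq2. RAB22A, which acts on early endosomes and in recycling, was at 2958 and 2756 normalized CPM in the control libraries and at 3074 in each SIRT6-inhibited library. The SIRT6-inhibited libraries stood slightly above both control libraries, and the log2 fold change was 0.11 (SE 0.10). The pairs RAB11A and RAB11B, RAB5A and RAB5C, and RAB1A and RAB1B are close paralogs, as are ARF1, ARF3, ARF4 and ARF5. How reads shared between such copies were counted is not given in the sources used here, so their counts are uncertain.

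Clathrin and its AP adaptors were represented by 7 tested genes of 9. Their log2 fold changes ranged from -0.70 to 1.16 with a median of -0.20, and 5 of the 7 were below 0. AP2B1, the beta subunit of the AP-2 adaptor that links clathrin to cargo at the plasma membrane, was the upper end of this range. It had 104 and 126 counts in the control libraries compared with 198 and 325 in the SIRT6-inhibited ones, or 22.5 and 35.5 against 61.5 and 67.7 normalized CPM. Both SIRT6-inhibited libraries were above both control libraries, and the mean was 2.23 times the control mean. edgeR gave a log2 fold change of 1.16 (SE 0.46), an unadjusted p-value of 0.0409 and an adjusted one of 0.534. The unadjusted p-value was 0.166 without control library 1 and 0.0950 without SIRT6-inhibited library 2. AP2B1 lies at chr12:39803105-39940801 in Sscrofa11.1.

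Other endosomal complexes had few members. VPS45, a partner of syntaxins in endosomal fusion, had the highest log2 fold change of the endosomal genes. It had 0 and 28 counts in the control libraries compared with 64 and 86 in the SIRT6-inhibited ones, so the groups did not overlap. Its log2 fold change of 2.26 carried an SE of 1.86 and an unadjusted p-value of 0.265 in edgeR. The log2 fold change was 1.25 without control library 1 and 9.32 without control library 2. In the latter fit the lone control library had 0 counts of VPS45, so 9.32 is not a measured fold. The 2 ESCRT genes, of the machinery that buds vesicles into multivesicular bodies, had log2 fold changes of 0.09 and 0.46 with overlapping groups. Retromer, which retrieves receptors from endosomes, had 1 tested gene with a log2 fold change of 0.32 (SE 1.10). The sorting nexins also had 1 tested gene, which was lower in the SIRT6-inhibited libraries without overlap. Its log2 fold change was -0.49 (SE 0.25), with an unadjusted p-value of 0.0892 in edgeR.

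On the route between the ER and the Golgi 19 of 23 genes were tested. There were 11 log2 fold changes below and 8 above 0, with a median of -0.08 and a range of -2.84 to 0.46. In edgeR SEC62 had an unadjusted p-value under 0.05, which is 5.26% of the 19 genes against 9.05% of all tested genes, and in DESeq2 SEC62, SEC61A1 and RAB1B did, 3 of the 19 against 9.93% of all tested genes. The SIRT6-inhibited libraries were both below the control libraries for 6 of the 19 genes (31.6%, against 22.2% of all tested genes) and both above for 1, SEC61A1 (5.26%, against 17.9%).

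The translocon moves new polypeptides into the ER, and its 3 genes divided. SEC62, which assists post-translational import and the turnover of ER membrane, was at 107 and 200.2 normalized CPM in the control libraries compared with 82.95 and 78.1 in the SIRT6-inhibited ones. The groups did not overlap, and control library 2 stood apart from the other 3. This gave a log2 fold change of -0.93 (SE 0.35), with an unadjusted p-value of 0.0346 and an adjusted one of 0.512 in edgeR. Without control library 2 the log2 fold change was -0.42 and the unadjusted p-value 0.326. SEC62 lies at chr13:108660486-108688307 in Sscrofa11.1. SEC61A1, the channel-forming subunit, lay on the other side, at 641 and 501 normalized CPM in the control libraries compared with 696 and 779 in the SIRT6-inhibited ones. Its groups did not overlap either, with a log2 fold change of 0.37 (SE 0.16) and an unadjusted p-value of 0.0598 in edgeR. The p-value of SEC61A1 was under 0.05 in 6 of the 11 alternatives, among them DESeq2, no filter on low counts, and leaving out control library 1 or SIRT6-inhibited library 1. SEC61B, a small subunit of the same channel, had a log2 fold change of 0.00 (SE 0.21) and overlapping groups.

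The coats of this route bud vesicles from the ER and the Golgi. COPB1, a subunit of the COPI coat, was at 1585 and 1312 normalized CPM in the control libraries compared with 1493 and 1625 in the SIRT6-inhibited ones. The groups overlapped, and the log2 fold change of COPB1 was 0.11 (SE 0.13, 95% interval -0.21 to 0.42). The other COPI gene had a log2 fold change of -0.08, and the 2 COPII genes had -0.28 and 0.26, all with unadjusted p-values above 0.05. The cargo receptors gave 3 tested genes of 4, with log2 fold changes of -1.01 to 0.03 and overlapping groups.

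The Rab and Arf GTPases of the ER-Golgi route had 8 tested genes of 10, of which 6 were below a log2 fold change of 0. ARF4, which helps recruit COPI and shapes carriers at the Golgi, was at 1075 and 1063 normalized CPM in the control libraries compared with 991 and 1088 in the SIRT6-inhibited ones. The groups overlapped, with a log2 fold change of -0.04 (SE 0.12). ARL1, which recruits golgin tethers to the trans-Golgi network, had 677 and 745 normalized CPM in the control libraries compared with 627 and 705 in the SIRT6-inhibited ones. These ranges overlapped too, and the log2 fold change was -0.09 (SE 0.14). ARL1 overlaps UTP20 in the annotation. Since the strand setting of the counting is not given in the sources used here, reads of overlapping genes cannot be told apart.

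RAB1B, a GTPase needed for transport from the ER to the Golgi, had the lowest log2 fold change of all 62 tested genes. Its counts were 56 and 66 in the control libraries compared with 9 and 7 in the SIRT6-inhibited ones. The groups lay far apart relative to their own spread, on few counts. On the log2 scale the fold change was -2.84 with an SE of 1.36 and a 95% interval of -6.08 to 0.40, and its unadjusted p-value was 0.0767 in edgeR and 0.0392 in DESeq2. Its close paralog RAB1A was at 115 and 144 normalized CPM in the control libraries compared with 107 and 95.4 in the SIRT6-inhibited ones, also without overlap, with a log2 fold change of -0.36 (SE 0.27). SEC22C, a relative of the SNARE SEC22B, had the highest log2 fold change of the ER-Golgi genes. It had 118 and 18 counts in the control libraries compared with 79 and 84 in the SIRT6-inhibited ones. The control libraries lay on either side of the others, the log2 fold change was 0.46 (SE 0.99), and without control library 2 it was -0.28. SEC22C overlaps SS18L2 and NKTR.

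**Figure D3:**
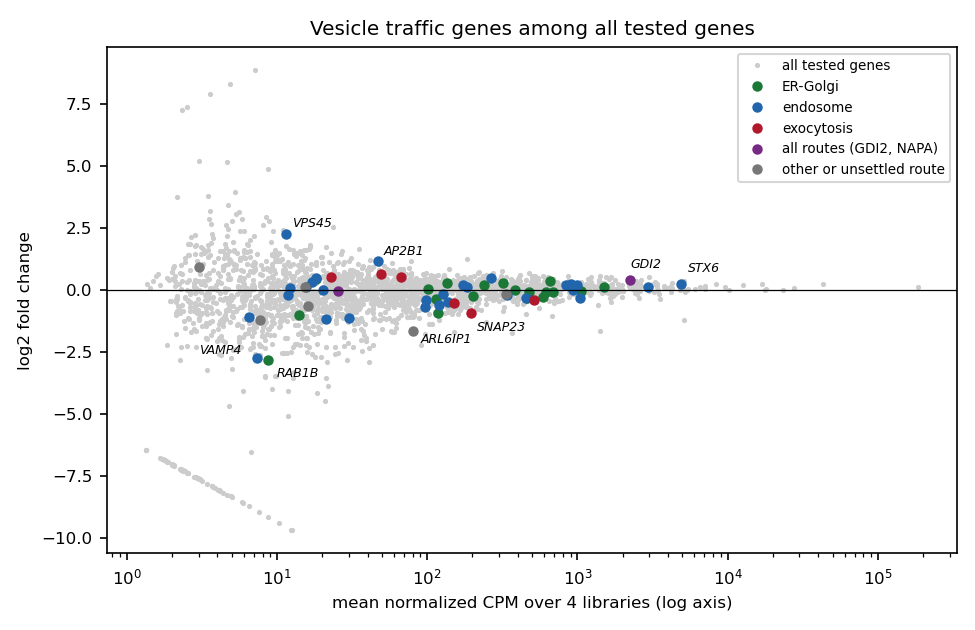
Mean normalized CPM over the 4 libraries (x axis, log scale) against the log2 fold change (y axis) of all 2387 tested genes in light grey, with the 62 vesicle traffic genes coloured by route. The vesicle traffic genes narrow towards 0 at high levels, where GDI2 stands at 0.39 and STX6 at 0.23, and spread at low levels, from RAB1B at -2.84 to VPS45 at 2.26.

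Of the 8 genes matched by name but with another or unsettled route, 6 were tested, 4 of them below a log2 fold change of 0. ARL6IP1, an ER membrane protein that shapes ER tubules, was at 72.8 and 169 normalized CPM in the control libraries compared with 55.9 and 22.1 in the SIRT6-inhibited ones. The groups did not overlap, but the libraries of each group lay more than 2-fold apart. edgeR gave a log2 fold change of -1.64 (SE 0.58), with an unadjusted p-value of 0.0273 and an adjusted one of 0.505. Without control library 2 the log2 fold change was -0.91 with an unadjusted p-value of 0.209. Without SIRT6-inhibited library 1 it was -2.46 with an adjusted p-value of 0.000128, the lowest of a range over the alternatives that reached 0.976. ARL6IP1 lies at chr3:26759365-26770325 in Sscrofa11.1.

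Across routes, the RAB genes can be read as 1 family. Of 21 listed RAB genes 18 were tested, with 10 log2 fold changes below and 8 above 0 and a median of -0.25. Both SIRT6-inhibited libraries were below both control libraries for 8 of the 18 RAB genes (44.4%, against 22.2% of all tested genes) and above for 5 (27.8%, against 17.9%). In edgeR the unadjusted p-value was under 0.05 for RAB10 alone of the 18 (5.56%, against 9.05%). The summed RAB level was 6963 and 6845 normalized CPM in the control libraries compared with 6976 and 6979 in the SIRT6-inhibited ones, or 101% of the control mean, a sum in which RAB22A weighs most. The SNAREs of all routes numbered 8, of which 6 were tested, with 4 log2 fold changes below 0 and a median of -0.26. In edgeR the unadjusted p-values of SNAP23 and VAMP7 were under 0.05, both lower in SIRT6-inhibited oocytes (33.3% of the 6, against 5.99% of all tested genes for this direction), while the summed SNARE level, in which STX6 weighs most, was 106% of the control mean.

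The 7 genes whose unadjusted p-values were under 0.05 were all among the 42 vesicle traffic genes above the median level of the tested genes, 45.5 normalized CPM, which is 16.7% of them against 12.4% of all genes above that level. Of the 20 vesicle traffic genes below it, edgeR gave 0 an unadjusted or adjusted p-value under 0.05, against an unadjusted 5.70% of all genes below it, whereas DESeq2 gave RAB1B an unadjusted one. Between libraries of the same group the median absolute log2 ratio of the 62 genes was 0.31 in the control group and 0.22 in the SIRT6-inhibited group, with 1 normalized CPM added to each level. For all tested genes it was 0.39 and 0.44. The genes AP4S1, ARF2, KDELR3, RAB17 and RAB33A had 0 counts in all 4 libraries, and AP3S2, ARL6IP5, RAB34, STX16, STX5 and VPS33A had counts but too few to be tested. STX5, a SNARE of the early Golgi, was counted 6 and 42 times in the control libraries and was at 0 in both SIRT6-inhibited libraries. No synaptotagmin or exocyst gene was analysed here.

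**Figure D4:**
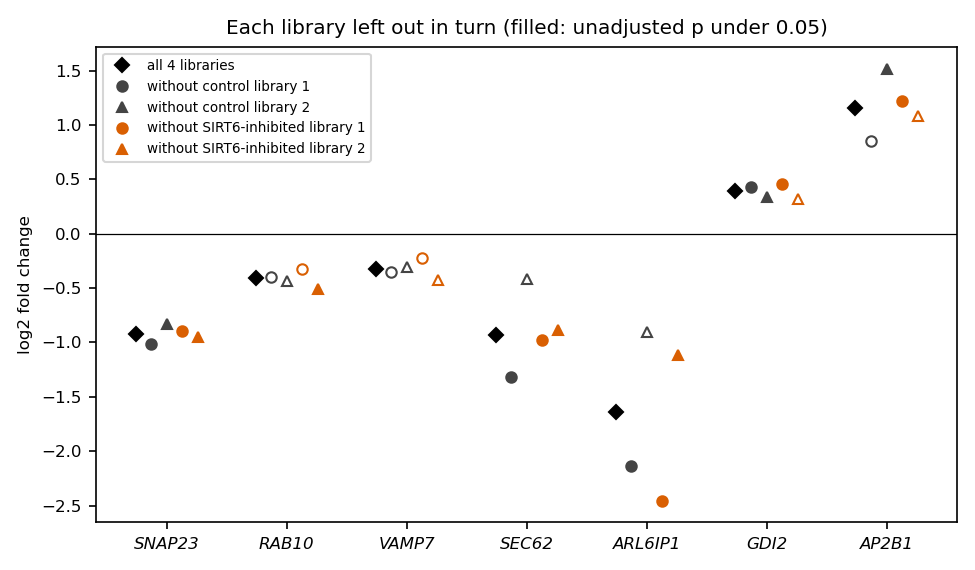
Log2 fold change (y axis) of the 7 genes whose unadjusted p-values were under 0.05 (x axis), from all 4 libraries (diamonds) and after leaving out 1 library at a time, where filled symbols mark unadjusted p-values from edgeR under 0.05. The log2 fold change of SNAP23 stayed between -1.02 and -0.83 with every symbol filled, whereas that of ARL6IP1 ranged from -2.46 to -0.91.

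Beyond the symbol pattern, a list of 93 further traffic genes held 18 of the genes analysed here, and 16 were tested. Their log2 fold changes were below 0 for 10 and above for 6, with a median of -0.11. SCAMP2, a carrier membrane protein of the recycling and secretory routes, had the only unadjusted p-value under 0.05 among them in edgeR (6.25% of the 16, against 9.05% of all tested genes). It was at 65.9 and 80.8 normalized CPM in the control libraries compared with 27.0 and 37.9 in the SIRT6-inhibited ones. The SIRT6-inhibited libraries were lower without overlap, with a log2 fold change of -1.17 (SE 0.41), an unadjusted p-value of 0.0267 and an adjusted one of 0.504 in edgeR. MYRIP and MLPH, effectors that link RAB27A to myosin motors, had 0 counts in all 4 libraries.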

How the data were processed

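The deposited values are whole-number counts of reads for each gene symbol, not normalized, in 1 column for each of the 4 libraries. A column was assigned to a sample where its name gave the group and number in that sample's title. The submitters' processing notes name TopHat2 2.0.13, Cufflinks 2.2.1, Cuffnorm, Cuffdiff and the builds mm10 and susScr11, with no role or order. The counting tool, annotation and strand setting are not given in the sources used here. The labels name Smart-seq2 amplification before library construction with the NEBNext Ultra kit, which fragments RNA and primes at random. The study's methods describe column extraction and the same kit and do not mention Smart-seq2. The totals cover the listed genes and are not the full depth.

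Counts were analysed with R 4.3.3, edgeR 4.0.16 and limma 3.58.1. Genes were kept by filterByExpr (minimum count 10, minimum total 15), scaled by TMM factors between 0.966 and 1.04, fitted by glmQLFit without a block and tested with glmQLFTest, with Benjamini-Hochberg adjustment over all 2387 genes. The standard error is the size of the log2 fold change divided by the square root of the F statistic, and intervals are 95% t intervals from edgeR's degrees of freedom. With 2 libraries a group the smallest exact permutation p-value is 0.333, so that test was not used. The fit was tested on simulated data. Routes were assigned from known function, and the members and lists were chosen with earlier results of these data known.

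Genes were named if their unadjusted p-value was under 0.05, if they had at least 10 counts in both libraries of a group and 0 in both of the other, if they were among the 3 with the highest mean normalized CPM of a route, if they had the highest or lowest log2 fold change of a route, or if they stood on a list of 20 exocytosis genes. Of that list 5 genes were in the table and the other 15 were not analysed here. RAB8A, STXBP6, SEC61A1, SEC61B, RAB1A, STX5, TMED3, NSF, MYRIP, MLPH, SCAMP2 and the marker genes given with values were named after their values were seen. Names and positions came from the RefSeq annotation of Sscrofa11.1, the assembly also called susScr11, in which 73 of 73 symbols matched. Which build the counts rest on is not stated, so the positions describe the annotation only.

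The alternatives tried were RLE size factors, testing without the count filter, requiring 10 counts in each library, leaving out the 10 most abundant genes, the replicate number as a block, DESeq2 1.42.0, and leaving out each library in turn. Data from quantitative PCR and imaging were not analysed here. The result of 1 annotation comparison is not reported here.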

Additional observations from a re-analysis of the deposited data

How the results depend on the processing

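For the 19 genes that met the naming rule, 180 comparisons with an alternative kept the direction and the side of an unadjusted p-value of 0.05, against 14 in which the p-value moved above 0.05, 6 in which it moved below and 6 in which the direction turned. Genes named after their values were seen are not in these numbers. SNAP23 kept both in all 11 alternatives run for it, with a log2 fold change of -1.02 to -0.83 and an adjusted p-value of 0.0313 to 0.950. GDI2, SEC62 and ARL6IP1 did so in 10 of 11, RAB10 and AP2B1 in 8 and VAMP7 in 6. The number of vesicle traffic genes at an adjusted p-value under 0.05 was 0 in edgeR (7 unadjusted), 2 with no filter on low counts (ARL6IP1 and SNAP23, of 43 genes in all), 1 with DESeq2 (GDI2, of 37) and 0 to 2 when each library was left out. The 2 were ARL6IP1 and TMED3 without SIRT6-inhibited library 1, of 77 genes in all, and without SIRT6-inhibited library 2 there were 0 of 25. The number at an unadjusted p-value under 0.05 was then 6 to 11, with 11 without SIRT6-inhibited library 1, while the share of all genes ran from 4.40% (without control library 2) to 11.7% (without SIRT6-inhibited library 1). With a library left out, the lone library of a group is assumed to vary like the other group. The median log2 fold change then ran from -0.143 to -0.0212 for all vesicle traffic genes, from -0.164 to -0.00578 for ER-Golgi genes, from -0.178 to 0.0510 for endosome genes and from -0.235 to 0.0202 for exocytosis genes. The endosome median was 0.0460 with no filter. With the replicate block it was -0.0952 and the log2 fold change of NAPA was 0.0821, and with the block crossed these were -0.0987 and 0.0844. Leaving out a library turned the direction of ARF4 (-0.112 to 0.0209), COPB1 (-0.0279 to 0.241), NAPA (-0.58 to 0.74) and SEC22C (-0.28 to 2.04). The cause of these shifts was not tested.

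The labels give libraries of both groups the numbers 1 and 2 without saying that a number marks a shared collection, and the deviations of same-numbered libraries from their group means had a correlation of -0.12. The replicate block gave an unadjusted p-value under 0.05 to 6 vesicle traffic genes and to 176 genes in all, losing VAMP7 at 0.0636, with 0 vesicle traffic genes and 6 genes in all at an adjusted one. A block with the numbers crossed, chosen after seeing the data, gave an unadjusted p-value under 0.05 to 10 vesicle traffic genes and 241 in all, with 0 and 2 at an adjusted one. The groups held 2 libraries each, and the common biological coefficient of variation was 0.651.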
